A study of Canis lupus familiaris with 124 samples.

Results

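The genes TP63 (ENSCAFG00000013961), LAMA3 (ENSCAFG00000018173) and TRIM36 (ENSCAFG00000000219) were followed through 8 cell lines and 9 tumor tissues of dogs, measured by RNA sequencing. These 3 genes of the 32183 listed in the files were chosen by name, as genes linked to basal epithelial cells, and not by a threshold on their values. TP63 encodes p63, a transcription factor of the p53 family that is needed to form and keep the basal layer of stratified epithelia, and it is used by pathologists to mark basal cells of the prostate and the urothelium. LAMA3 encodes the α3 chain of laminin, which assembles with the β3 chain (LAMB3) into the basement membrane laminin to which basal cells are anchored. TRIM36 encodes a ubiquitin ligase of the tripartite motif family, and its place among basal genes is the least established of the 3.

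The lines came from prostate adenocarcinoma (PAC) or from transitional cell carcinoma (TCC), the cancer of the urothelium that lines the bladder and the prostatic urethra. Adcarc0846 (German Rough-haired Pointer, 6 years), Adcarc1508 (mixed breed, 11 years) and Adcarc1511.1 (Dobermann, 6 years) were primary PAC lines, and Metadcarc1511.2 and Metadcarc1511.3 were derived from metastases of the same Dobermann. TCC0840 (Pitbull Terrier, 10 years), TCC1506 (Labrador Retriever, 10 years) and TCC1509 (Bolonka Zwetna, 9 years) were TCC lines. TCC0840 was grown from a needle aspirate and diagnosed by cytology. By their full names in the paper, TCC0840 and TCC1509 came from the prostate and TCC1506 from the urinary bladder. The tissues were P2 (source of Adcarc0846), the metastases Ln4.2 and Ln4.3 (sources of Metadcarc1511.2 and Metadcarc1511.3), the TCCs P6.1 (source of TCC1509) and B7 (source of TCC1506), the TCC metastasis Ln6.2 of the dog of P6.1, and the bladder TCCs B8 (Cairn Terrier, 11 years), B9 (Miniature Pinscher, 8 years) and B10 (German Shepherd, 8 years), from which no line was made. P2 and P6.1 were prostate tissue, B7, B8, B9 and B10 bladder tissue, and Ln4.2, Ln4.3 and Ln6.2 lymph nodes. All PAC samples, P6.1, Ln6.2, TCC0840 and TCC1509 came from male dogs, and the other TCC samples from females, so sex and histology partly overlap. Among the TCC lines and primary TCC tissues, organ and sex were the same split. Neither lines nor tissues received a drug treatment according to the labels, and all lines were kept in the same serum-containing medium.

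Each tissue had 1 library with 11920434 to 18086891 counts. The lines had 2 or 3 libraries each with 15355777 to 19935252 counts. The libraries of a line were separate flasks. TCC0840 was at passages 350 and 352 and Adcarc0846 at 447 and 448, while the other 6 lines were at 68 to 107. The part of passage in differences between lines was not tested. In the 6 lines with 3 libraries, the first was 6 to 8 passages before the second, and p-values across them measure only the spread between cultures of 1 line. Levels are given as CPM, the share of the counts of a library scaled to 1e+06. For a line, the libraries were summed where it was compared with other samples. RNA was isolated with different kits from cell pellets and from tissues, which cannot be told apart from the difference between line and tissue. The sample numbers in the labels ran from 1 to 16, and 15 of them were used by 2 libraries. Which libraries were prepared together is not labelled, and no value within such a series was computed. In tissue, a lower level of an epithelial gene can mean fewer epithelial cells or less RNA per cell, and bulk data cannot tell these apart. The summed level of 10 epithelial markers was 273 to 6640 CPM in tissues and 715 to 3024 CPM in lines. The lowest values were those of P2 (273 CPM), Ln6.2 (691 CPM) and TCC1509 (715 CPM), while the other 7 lines had at least 1811 CPM and the other 7 tissues at least 1154 CPM. P2 and Ln6.2 had 91789 and 47365 CPM of 6 fibroblast markers. TCC1509 had the most of these markers among the lines (1033 CPM), and all 6 were above 3 counts there. TCC1506 came next with 93.3 CPM, and every other line had at most 1.33 CPM. P2, Ln6.2 and TCC1509 are named at each result that rests on them.

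TP63 was above 2 counts a library in 1 of the 8 lines. The 3 libraries of TCC1506 had 496, 151 and 292 CPM (8450, 2566 and 5614 counts), a mean of 313 ± 173 CPM (SD, n = 3). The other 19 libraries had at most 2 counts each, and 13 of them had 0. The 5 PAC and PAC metastasis lines together held 5 TP63 counts among 247247767. TCC0840 had 4 counts over both libraries (0.119 CPM), and TCC1509 had 0 in 51976473 counts, which allows up to 0.0577 CPM (3 counts). Both lines were thus within a few reads of the PAC lines. TCC1506 was also the only line from the bladder and from a female dog, so organ, sex and line cannot be told apart. TCC1506 exceeded TCC0840, the next line in the order, by 2617-fold (95% interval of the counts 1022 to 9606).

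**Figure D1:**
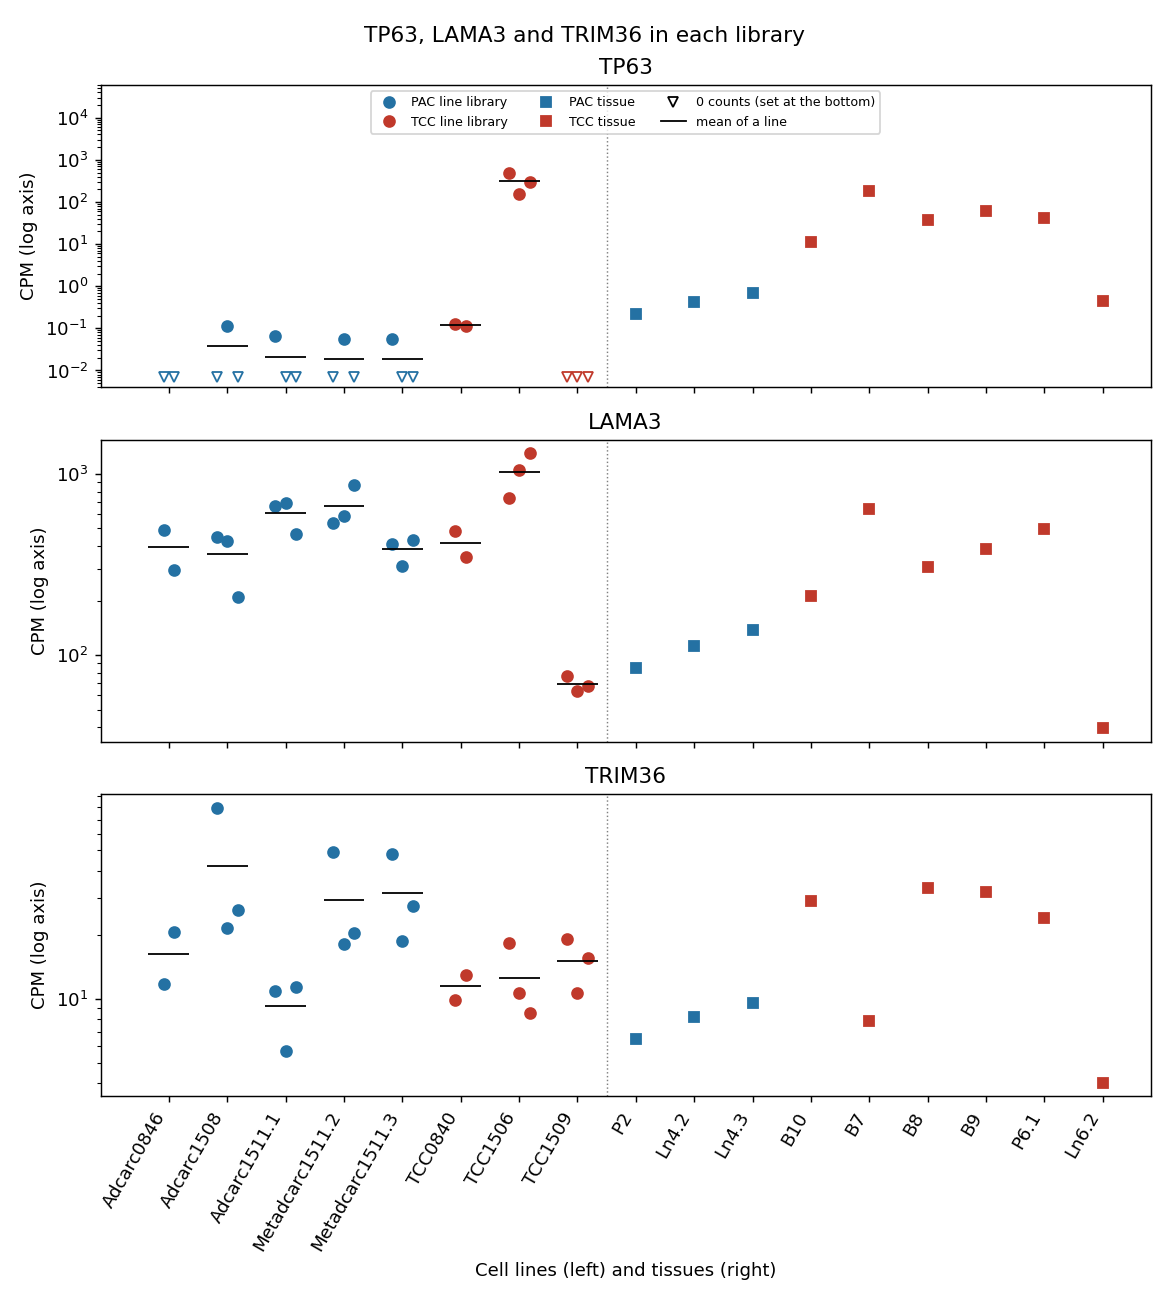
CPM on log axes of TP63, LAMA3 and TRIM36 in each library of 8 lines (circles, with the mean of the line) and in 9 tissues (squares), with PAC in blue and TCC in red, and triangles at the bottom for libraries with 0 counts. TP63 was high in TCC1506 and in the 5 primary TCC tissues, LAMA3 was at 208 CPM or more in every line library apart from those of TCC1509, and TRIM36 varied from 5.66 to 79.5 CPM among line libraries.

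In tissue, TP63 separated the 5 primary TCCs from the other samples. It had 178.6 CPM in B7, 62.2 in B9, 40.6 in P6.1, 36.9 in B8 and 11.3 in B10. The PAC tissues had 0.674 CPM (Ln4.3, 10 counts), 0.427 CPM (Ln4.2, 6 counts) and 0.215 CPM (P2, 3 counts). The groups did not overlap, and the share of all genes that separate them is not given. B10, the lowest primary TCC, was 16.8-fold above Ln4.3, the highest PAC tissue (95% interval of the counts 8.86 to 35.9). The TCC metastasis Ln6.2 lay with the PAC tissues at 0.440 CPM (7 counts), which was 92.4-fold below the primary tumor of the same dog, P6.1 (95% interval of the counts 44.6 to 230.7). One sample of each kind from 1 dog does not give a test of primary tumor against metastasis.

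The 5 primary TCC tissues were then tested against the 3 PAC tissues, 2 of which came from 1 dog. To be called, a gene had to reach 2-fold or more with an edgeR adjusted p no higher than 0.01. The log2 fold change of TP63 was 7.21 (SE 1.09, 95% interval 4.75 to 9.68), with an adjusted p of 0.0139 that just misses the threshold. LAMA3 had 1.90 (SE 0.44, adjusted p = 0.0410) and TRIM36 1.67 (SE 0.49, adjusted p = 0.0782). edgeR called 0 of the 13755 genes tested (0%), while 3333 had an unadjusted p under 0.05, and DESeq2 called 1435 genes, all 3 members among them. Over the 12 alternatives the adjusted p ranged from 3.15e-14 to 0.105 for TP63, from 4.03e-04 to 0.225 for LAMA3 and from 0.00825 to 0.329 for TRIM36, in each case with the lowest from DESeq2. The median log2 fold change of all genes was 0.15. The cell types of the tissues moved with this comparison. The PAC tissues had 8600 to 91789 CPM of fibroblast markers and 273 to 1473 CPM of epithelial markers, whereas the primary TCCs had 495 to 3794 and 2587 to 6640 CPM, and their part in the difference was not tested.

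LAMA3 in the same tissues had 640.4, 496, 383, 307 and 212 CPM in B7, P6.1, B9, B8 and B10, and 138, 112 and 84.8 CPM in Ln4.3, Ln4.2 and P2. The lowest primary TCC was 1.54-fold above the highest PAC tissue (95% interval of the counts 1.45 to 1.63). As for TP63, the share of all genes that separate these groups is not given. TRIM36 did not separate the histologies. Of the primary TCCs, 4 had 33.4 (B8), 31.8 (B9), 28.9 (B10) and 24.0 CPM (P6.1), but B7 had 7.82 CPM, within the 6.44 to 9.50 CPM of the PAC tissues. B7 was thus the tissue with the highest TP63 and LAMA3 and the lowest TRIM36 of the primary TCCs. Ln6.2 had the lowest level of all tissues for LAMA3 (39.5 CPM) and for TRIM36 (4.02 CPM).

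Unlike TP63, LAMA3 was expressed in every line. The mean over the libraries was 1028 ± 282 CPM in TCC1506 (SD, n = 3), 666 ± 180 in Metadcarc1511.2, 608 ± 122 in Adcarc1511.1, 417 ± 98.8 in TCC0840 (n = 2), 394 ± 138 in Adcarc0846 (n = 2), 384 ± 63.5 in Metadcarc1511.3 and 363 ± 134 in Adcarc1508. TCC1509 was the lowest with 76.9, 63.7 and 67.5 CPM in its libraries (69.3 ± 6.79), below every library of the other lines. LAMA3 was therefore at 365 to 673 CPM in the 5 lines of PAC origin, in which TP63 had 0 to 2 counts. Of the 7 steps between neighbours in this order, only that from Adcarc1508 to TCC1509 was called (log2 fold change 2.29, SE 0.31, adjusted p = 9.02e-06), and the first step, from TCC1506 to Metadcarc1511.2, was 0.64 (95% interval 0.01 to 1.27, adjusted p = 0.0957). In the order of TP63 the only step called was the first, from TCC1506 to TCC0840 (adjusted p = 1.32e-08). Over the same steps, 17.7% (LAMA3) and 16.2% (TP63) of all gene and step combinations were called. Each order was set by the gene's own levels, which makes its steps small, so these shares are no reference for its counts, and the steps only describe which gaps exceed the spread.

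TRIM36 was present in every library at a lower level than LAMA3. On the TPM scale, which takes the gene length into account, LAMA3 was 2.03 to 35.9 times TRIM36 in the lines. The mean CPM of TRIM36 was 42.4 ± 32.2 in Adcarc1508 (SD, n = 3), 31.4 ± 14.99 in Metadcarc1511.3, 29.2 ± 17.2 in Metadcarc1511.2, 16.2 ± 6.31 in Adcarc0846 (n = 2), 15.1 ± 4.25 in TCC1509, 12.5 ± 5.15 in TCC1506, 11.4 ± 2.17 in TCC0840 (n = 2) and 9.28 ± 3.15 in Adcarc1511.1. None of the 7 steps between neighbours in this order, which TRIM36 itself sets, was called (19.1% of all gene and step combinations were, again no reference for this count), and the libraries of a line differed by up to 3.68-fold (Adcarc1508). TCC1506 and TCC1509, at opposite ends for TP63 and LAMA3, were neighbours for TRIM36, and the step between them was 0.22 (95% interval -0.83 to 1.26 on the log2 scale).

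Histology was also compared among the lines, with 3 TCC lines against 5 lines of PAC origin. TP63 could not be tested, since neither group had 10 counts in every line. The log2 fold change was 0.08 for LAMA3 (95% interval -1.48 to 1.64, adjusted p = 0.984) and -0.94 for TRIM36 (95% interval -2.01 to 0.12, adjusted p = 0.608). LAMA3 in the TCC lines spanned both extremes of the order, from 69.4 to 1040 CPM. Its log2 fold change turned to -1.07 without TCC1506 and to -0.03 without Adcarc1508, and rose to 0.58 without TCC1509. For TRIM36 the TCC lines lay between 11.5 and 15.2 CPM, inside the range of the PAC lines (9.12 to 43.9 CPM). edgeR called 0 of 12557 genes (0%), 1079 had an unadjusted p under 0.05, and DESeq2 called 105.

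**Figure D2:**
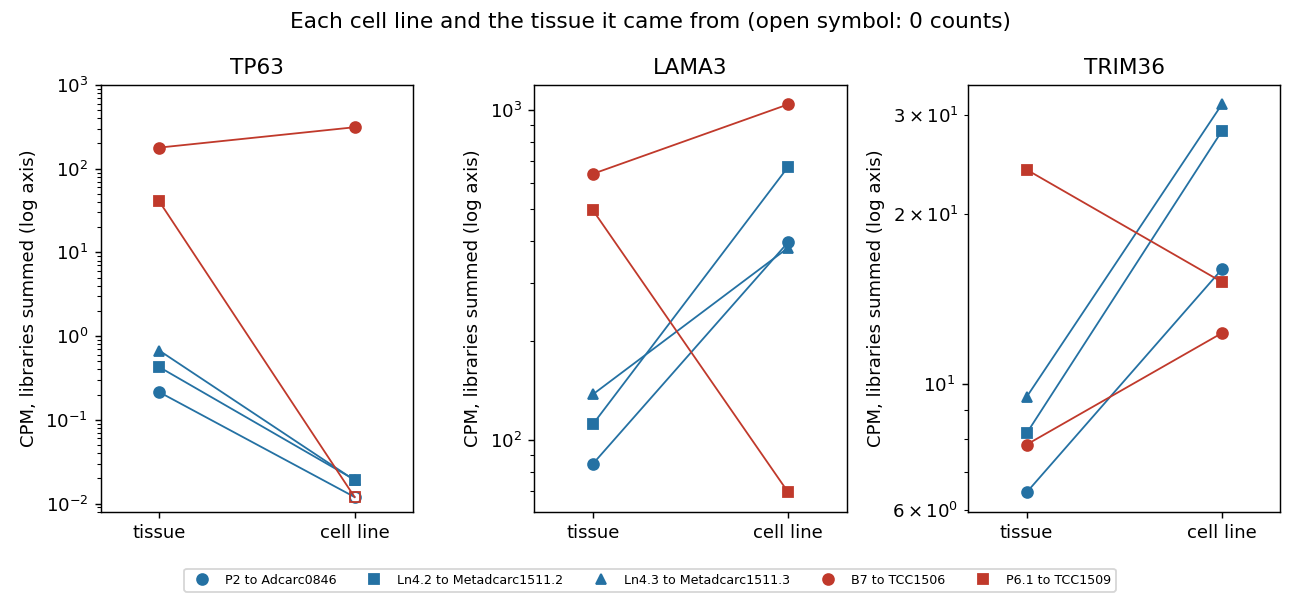
CPM on log axes of TP63, LAMA3 and TRIM36 in 5 tissues (left of each panel) and in the lines derived from them (right, libraries summed), with PAC in blue and TCC in red, and open symbols for 0 counts. LAMA3 and TRIM36 were above the tissue in 4 of the 5 lines, all but TCC1509, and TP63 was above the tissue only in TCC1506.

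Of each line and its source tissue, TP63 was kept in 1 of 2 TCC pairs. TCC1506 had 312.5 CPM and B7 178.6 CPM, a ratio of 1.75 (95% interval of the counts 1.68 to 1.82). The libraries of the line spread far wider than this counting interval, with 0.848, 1.63 and 2.78 times the level of B7, so 1 of 3 was below the tissue. TCC1509 had 0 counts and P6.1 had 735 counts (40.6 CPM), so TP63 was at least 704-fold lower in the line, taking 3 counts as the floor of the summed libraries. LAMA3 followed the same pattern, with a ratio of 1.62 in TCC1506 (1040 against 640.4 CPM) and a level 7.15-fold lower in TCC1509 (69.4 against 496 CPM). In both genes TCC1509 was closer in level to the metastasis Ln6.2 of the same dog, which had 0.440 CPM of TP63 and 39.5 CPM of LAMA3. TRIM36 was 1.58-fold higher in TCC1506 than in B7 (12.3 against 7.82 CPM) and 1.58-fold lower in TCC1509 than in P6.1 (15.2 against 24.0 CPM). In this gene TCC1509 was closer to P6.1 than to Ln6.2, above which it lay 3.78-fold. The fitted log2 fold change over both pairs averaged these opposite ratios, with -1.07 for LAMA3 (SE 1.34, adjusted p = 0.928) and -0.01 for TRIM36 (SE 0.73, adjusted p = 1.000), and that of TP63 had an SE of 6.44. edgeR called 0 of 13599 genes (0%), 845 had an unadjusted p under 0.05, and DESeq2 called 486.

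In the PAC and PAC metastasis pairs, LAMA3 and TRIM36 had higher values in the line than in the tissue throughout. LAMA3 had 673 CPM in Metadcarc1511.2 against 112 in Ln4.2, 383 in Metadcarc1511.3 against 138 in Ln4.3, and 398 in Adcarc0846 against 84.8 in P2, which are ratios of 6.02, 2.78 and 4.69. TRIM36 had 28.1 against 8.19, 31.3 against 9.50 and 15.99 against 6.44 CPM in the same pairs, with ratios of 3.43, 3.30 and 2.48. TP63 was near 0 on both sides, with 1 count in each metastasis line against 6 counts in Ln4.2 and 10 in Ln4.3. Only the metastasis class had 2 pairs for a test, both from 1 dog. The log2 fold change was 2.01 for LAMA3 (95% interval 0.96 to 3.06, adjusted p = 0.0251) and 1.73 for TRIM36 (95% interval 1.12 to 2.33, adjusted p = 0.0115), so that neither was called, where 11.2% of 15123 genes were. DESeq2 called both, but it called 4841 genes in all. TRIM36 was also called without the pair in the model, without replicate 2 and without replicate 3. These settings called 2044, 1878 and 2184 genes. Over the 7 alternatives the adjusted p ranged from 8.04e-07 to 0.0266 for LAMA3 and from 2.33e-14 to 0.0245 for TRIM36. TP63 did not reach 10 counts in both samples of a group and was not tested. In these pairs, 5 of 6 fibroblast, 6 of 8 leukocyte and 4 of 4 endothelial markers were called lower in the lines, where 9.56% of all genes were. Their summed levels were 8600 to 91789 CPM of fibroblast markers in the 3 PAC tissues and at most 1.33 CPM in the PAC lines, and the part of these cells in the result for LAMA3 and TRIM36 was not tested.

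The difference between the line effects of both classes was tested directly. It was -3.05 for LAMA3 (SE 1.57, adjusted p = 0.596), -1.70 for TRIM36 (SE 0.70, adjusted p = 0.549) and 0.62 for TP63 (SE 6.09), on the log2 scale and as TCC minus PAC metastasis. edgeR called 0 of 15429 genes (0%), 1503 had an unadjusted p under 0.05, and DESeq2 called 453. Over all 8 lines and 9 tissues, the log2 fold change of lines against tissues was 1.26 for LAMA3 (95% interval 0.08 to 2.44, adjusted p = 0.105) and 0.34 for TRIM36 (SE 0.55, adjusted p = 0.681), with 10.4% of 12396 genes called. Without TCC1509 and Ln6.2, LAMA3 had a log2 fold change of 1.56 with an adjusted p of 0.00917 and passed the threshold, the lowest of 23 alternatives that reached up to 0.477. This exclusion was chosen after seeing the data, and it removes the line and the tissue with the lowest LAMA3. With P2, the tissue with the fewest epithelial marker counts, left out as well, the call was lost again (1.39, adjusted p = 0.0323). TP63 was not tested here for lack of counts.

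Within the Dobermann, the metastasis lines were compared with the primary tumor line Adcarc1511.1. TP63 had 1 count in each of the 3 lines, and no fold change is given. LAMA3 had a log2 fold change of -0.34 (95% interval -0.88 to 0.19, adjusted p = 0.349), with Metadcarc1511.2 above (673 CPM) and Metadcarc1511.3 below (383 CPM) the primary tumor line (610.6 CPM). TRIM36 had 10.8, 5.66 and 11.4 CPM in the libraries of Adcarc1511.1, 49.0, 18.2 and 20.4 in those of Metadcarc1511.2 and 47.9, 18.7 and 27.4 in those of Metadcarc1511.3. All 6 metastasis libraries were above all 3 primary tumor libraries, and the share of all genes with such a split is not given. The log2 fold change of TRIM36 was 1.61 (SE 0.47, adjusted p = 0.0153), which was not called, where 10.4% of 13916 genes were and 5347 had an unadjusted p under 0.05. It was called with a replicate block (1.53, adjusted p = 0.00508), without the filter on low counts (1.62, adjusted p = 0.00105) and by DESeq2 (1.62, adjusted p = 0.00138). These settings called 1631, 1738 and 1675 genes in all. The adjusted p of the 7 alternatives reached up to 0.0864. Of 9 laminin, integrin and basement membrane anchor genes, 1 was called, as lower, where 5.42% of all genes were. ITGA6, the α6 integrin chain that binds this laminin, was lower in the mean of the metastasis lines (log2 fold change -1.28, SE 0.30, adjusted p = 0.00413). Metadcarc1511.3 had 98.2, 208 and 190 CPM, all below the 487, 699 and 476 CPM of Adcarc1511.1. Metadcarc1511.2 had 136, 409 and 501 CPM, so its libraries overlapped those of the primary tumor line. Of 10 p63-linked genes, SNAI2, a repressor linked to the mesenchymal state, and TP73, the closest relative of TP63, were lower (-3.61, SE 0.33, adjusted p = 1.82e-07 and -1.28, SE 0.31, adjusted p = 0.00461).

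TRIM36 also differed between the first and the later libraries of a line. In the 6 lines with 3 libraries, replicate 1 had the lowest passage. Its TRIM36 level was above both later libraries in 5 of 6 lines. Adcarc1508 had 79.5 CPM at passage 97 and 21.6 and 26.2 at passages 105 and 106. Metadcarc1511.2 had 49.0 at passage 68 and 18.2 and 20.4 at passages 75 and 79, and Metadcarc1511.3 had 47.9 at passage 79 and 18.7 and 27.4 at passages 86 and 87. These 3 lines had the steepest ratios of early to later cultures, with 3.32, 2.54 and 2.08. TCC1506 had 18.3 CPM at passage 98 against 10.6 and 8.53 at 106 and 107, and TCC1509 had 19.0 at passage 77 against 10.6 and 15.6 in 2 cultures of passage 85. In Adcarc1511.1 the first library, with 10.8 CPM at passage 88, lay between those of passage 94 (5.66) and 95 (11.4). The share of all genes that were highest in the first library in 5 of 6 lines is not given.

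Later passages were tested against the earliest, with the line as a covariate. TRIM36 was called lower at later passages (log2 fold change -1.02, SE 0.19, adjusted p = 0.0015). Of 10828 genes, 2.69% were called and 1.60% were called lower, while 4270 had an unadjusted p under 0.05. The call of TRIM36 was lost without replicate 2 (-0.83, adjusted p = 0.0602), without Adcarc1508 (-0.86, adjusted p = 0.0143) and without Metadcarc1511.2 (-0.94, adjusted p = 0.0130). It was kept in the other 8 of 11 alternatives. LAMA3 had a fold change of -0.02 (95% interval -0.40 to 0.36, adjusted p = 0.950), with the earliest library highest in 2 lines, lowest in 2 and between the others in 2. The sign for LAMA3 turned in 5 of 11 alternatives. TP63 was not tested, and in TCC1506 it had 496 CPM at passage 98, 151 at 106 and 292 at 107. The first libraries carried the sample numbers 1 to 5 and the later ones 6 to 16, so passage, replicate number and range of sample numbers are the same split in all 6 lines and cannot be told apart.

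**Figure D3:**
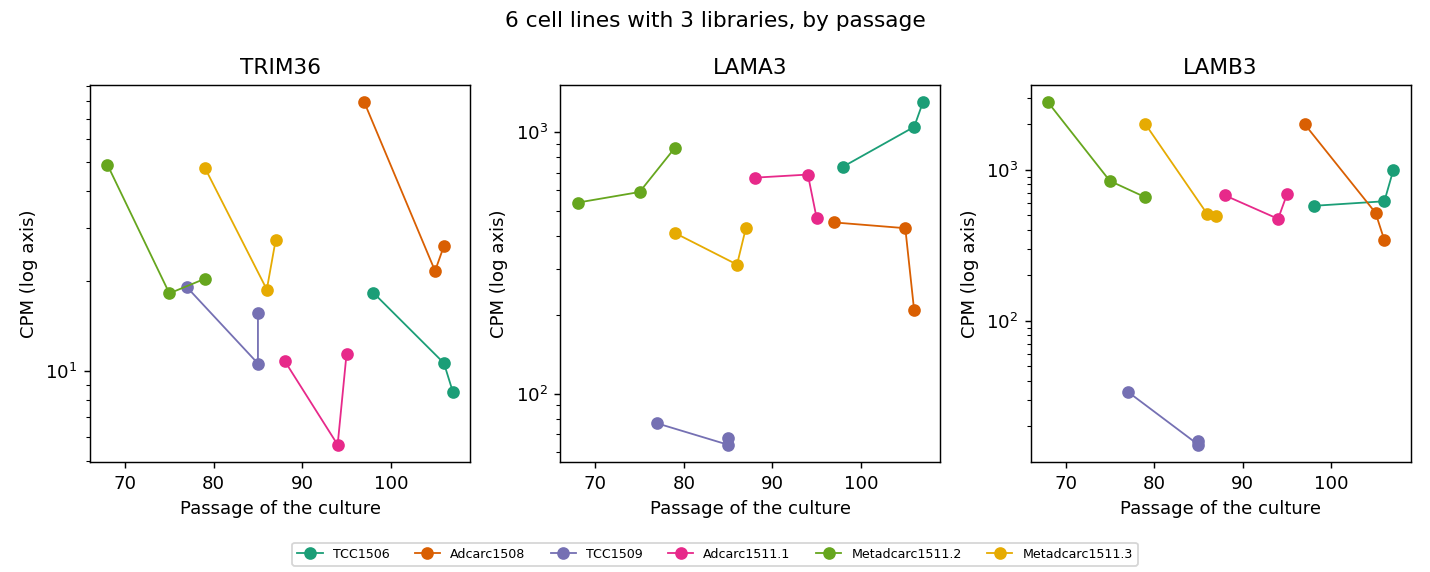
CPM on log axes of TRIM36, LAMA3 and LAMB3 against the passage of the culture in 6 lines with 3 libraries each, 1 colour a line. TRIM36 was highest at the lowest passage in 5 lines, LAMB3 in 4, and LAMA3 in 2.

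Other genes moved with the same split. LAMB3, the β3 chain that pairs with the product of LAMA3, was called lower at later passages (-1.30, SE 0.29, adjusted p = 0.00467). It was the only call among 8 laminin, integrin and anchor genes tested, where 1.60% of all genes were called lower. The median of these 8 was -0.06 beside -0.01 for all genes. LAMB3 had 2813 CPM in Metadcarc1511.2 at passage 68 and 845 and 659 later, and 2014 CPM in Metadcarc1511.3 at passage 79 and 509.8 and 492 later. In TCC1506 it went the other way, with 578, 619 and 993 CPM. None of 7 p63-linked genes was called by edgeR. Of 8 mitotic genes, only AURKA, a kinase of the mitotic spindle, was called higher at later passages (1.08, SE 0.25, adjusted p = 0.00628), where 1.09% of all genes were. The median of the 8 was 1.07. The part of growth state in the level of TRIM36 was not tested.

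LAMA3 and LAMB3 were set side by side on the TPM scale, since their chains form 1 protein complex. LAMB3 was above LAMA3 in 7 of 8 lines and 6 of 9 tissues. The ratio of LAMB3 to LAMA3 was between 2.25 (TCC1506) and 8.39 (Adcarc1508) in these 7 lines. The highest values rested on the earliest libraries, with 14.05, 3.83 and 5.19 in the libraries of Adcarc1508, 16.5, 4.52 and 2.39 in Metadcarc1511.2 and 15.5, 5.17 and 3.62 in Metadcarc1511.3. The ratio was 0.994 in TCC1509 (1.40, 0.750 and 0.754 by library), where both were near 10 TPM (10.3 TPM of LAMA3 and 10.2 TPM of LAMB3). In tissue it was highest in the metastases Ln4.3 (11.5) and Ln4.2 (8.95), and below 1 in B10 (0.372), P2 (0.469) and Ln6.2 (0.279). B10 had 26.5 TPM of LAMA3 but 9.85 TPM of LAMB3. Both histologies held samples on each side of the line of equal levels.

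**Figure D4:**
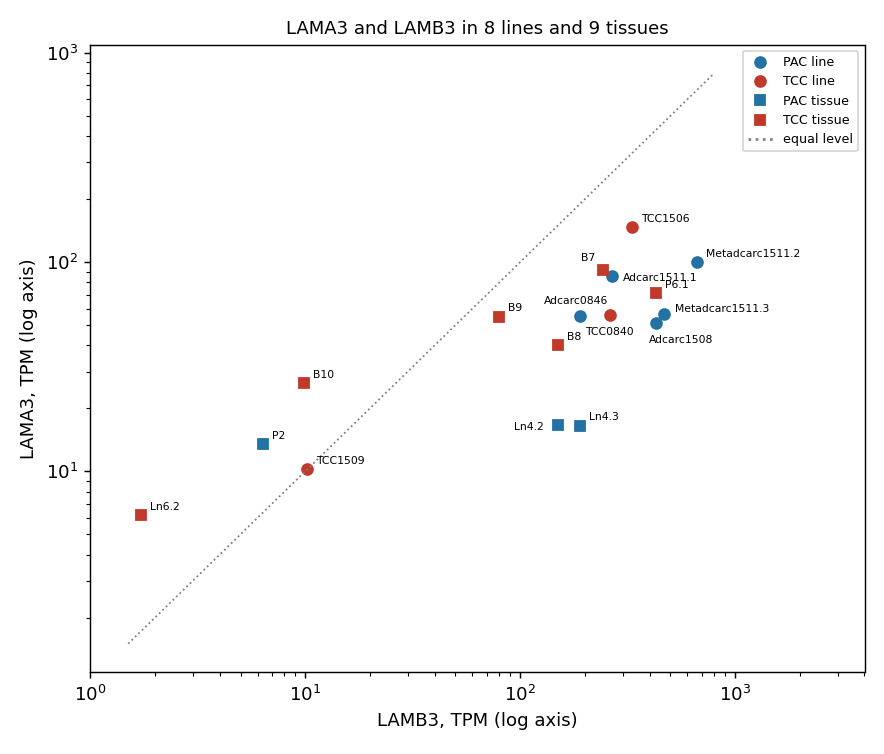
TPM of LAMA3 against TPM of LAMB3 on log axes in 8 lines (circles, mean over libraries) and 9 tissues (squares), with PAC in blue and TCC in red and a dotted line of equal levels. TCC1509 lies near the line with about 10 TPM of each, and B10, P2 and Ln6.2 lie above it.

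Among the laminin, integrin and anchor genes in the comparisons of lines and tissues, LAD1 was the only one called in the PAC metastasis pairs (log2 fold change 2.31, SE 0.18, adjusted p = 0.00634). LAD1 encodes a protein of the basement membrane anchor and is itself neither a laminin nor an integrin. This is 1 of 9 genes, where 11.2% of all genes were called, and is no result about the group. The median of these 9 genes was 0.94 there, beside -0.05 for all genes. Over all lines and tissues only LAMA4, a laminin chain made mostly by mesenchymal and endothelial cells, was called, as lower in lines (log2 fold change -10.9, SE 1.75, adjusted p = 3.04e-04), which again is 1 of 9 beside 10.4% of all genes. LAMB3 itself had 1.54 (SE 0.38, adjusted p = 0.0473) in the metastasis pairs and 0.95 (SE 0.94, adjusted p = 0.484) over all samples. Among the 10 p63-linked genes, TGM1, which cross-links the envelope of differentiated squamous cells, and DLX3, a transcription factor of differentiating epidermis, were called lower in the metastasis lines (-6.64, SE 0.43, adjusted p = 0.00492 and -6.03, SE 0.50, adjusted p = 0.00690), with a median of 0.20 for the list and 9.56% of all genes called lower. None of this list was called over all samples, of 9 tested. CDH3, the P-cadherin of basal cells, had 36.3 to 416.9 CPM in the lines, with 117.6 CPM in TCC1509 and at least 275 CPM in 4 PAC-derived lines that had next to no TP63. In the primary TCC tissues it was 763 CPM in B7 and 273.9 CPM in P6.1 but 10.2 to 16.1 CPM in B8, B9 and B10, of which all had TP63. From a longer published list of basal bladder cancer markers that the study used, 7 genes were analysed here. Of these, 2 were called in the metastasis pairs and 4 over all samples, all lower in lines, where 9.56% and 7.56% of all genes were called lower. They included RAC2 and MMP2, which are also made by leukocytes and fibroblasts.

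The genes with the most similar level to each member were listed as a description, over the 17 samples (8 lines and 9 tissues) and among genes with a symbol, by Pearson's r of log2(CPM + 0.5). Only 1050 of the 13996 genes compared had a symbol, in part from lists that the study had ranked with the expression of these lines. Among all genes the named ones ranked 8 to 63 for TP63, 26 to 44 for LAMA3 and 6 to 46 for TRIM36. For TP63 these were MUC13 (r = 0.93), RBM4B, PTGS1, RDH12 and CHCHD10 (0.81 to 0.77). As TP63 splits the samples into 6 high and 11 low ones, these values mainly rank genes by that split. For LAMA3 they were PERP (r = 0.83), a desmosome protein under control of p63, LAMB3 (0.82), RAB27B (0.81), and OVOL2 and PKP3 (0.81 and 0.80). PERP and LAMB3 had 0.88 and 0.87 over the lines alone and 0.84 and 0.75 over the tissues alone. For LAMB3, Spearman's rho over the lines was only 0.36. TCC1509 was the lowest line in LAMA3, LAMB3 and PERP, with 69.4, 21.8 and 142 CPM. The other lines had at least 365, 433 and 391 CPM, and no correlation without TCC1509 was computed. For TRIM36 they were TFAP2B (r = 0.85), a transcription factor of the AP-2 family, OCLN (0.78), a tight junction protein, and GTF2A1, SYTL2 and HS6ST1 (0.75 to 0.74). TFAP2B kept 0.85 over the lines and 0.88 over the tissues, whereas OCLN had 0.40 over the lines and 0.88 over the tissues. Several samples share a dog, and tissues share a variable share of epithelial cells, so the points are not independent.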

How the data were processed

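RNA sequencing data of 22 libraries of 8 cell lines and 9 tissue libraries were analysed. The authors trimmed the reads with Trimmomatic 0.36, mapped them to the dog genome CanFam3.1 with STAR 2.5.3 and quantified genes with RSEM 1.3.0. They deposited, per lane, expected counts without normalization, TPM values, which the authors' tool scales to gene length, and a gene length column. Expected counts of the 4 lanes were summed per library and, for comparisons of samples, over the libraries of a line, and were then rounded to whole numbers. TPM were averaged over lanes. The labels number lanes 2 to 4 of 1 Adcarc0846 library upward, and these lanes were assigned by their titles.

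The main test was the quasi-likelihood F test of edgeR 4.0.16 (TMM, Benjamini-Hochberg over all genes tested) in R 4.3.3, on genes with at least 10 counts in every sample of 1 group. A call needed a 2-fold difference or more at an adjusted p no higher than 0.01. DESeq2 1.42.0, other size factors, no filter, other pairings and each sample or replicate left out were the alternatives. The fits of 6 of the 8 comparisons were also run on simulated counts as a check of the code. Intervals of ratios and the floor of 3 counts cover counting error only. The members, gene lists and tests were chosen with earlier results of these data known. Symbols for 1102 of the 32183 identifiers came from the study's tables. These include its lists of genes ranked by their correlation with drug resistance, which used the expression of these lines. The named genes are therefore no neutral sample of all genes. Without a symbol, 4 genes of the laminin, integrin and anchor list and 4 p63-linked genes were not analysed. Among them are the basal keratins KRT5 and KRT14, and ITGB4 and COL17A1. The text names the members in every sample, at most 4 genes of a list (the highest and lowest fold change among calls, otherwise those nearest in role to a member) and the 5 genes with a symbol that are most like each member.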

Additional observations from a re-analysis of the deposited data

Results flagged for a closer look

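Among 12 groups of samples tested for a value far from the rest on the log2(CPM + 0.5) scale, 3 were flagged. Chance flags about 1 in 20 groups if they are independent and normally distributed. These groups share samples, and the genes were chosen with earlier results known, so this rate is no reference for the 3. The first was TP63 in TCC1506 among the 8 lines, where the gap to the next line made up 0.967 of the whole range. The other 7 lines had at most 4 TP63 counts, and the added 0.5 brings such low values together. The second was LAMA3 in TCC1509 among the 8 lines, where the gap made up 0.613 of the range. The third was TRIM36 in B7 among the 5 primary TCC tissues, with a gap of 0.769 of the range, while B7 had the highest TP63 and LAMA3 of these tissues.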

How the results depend on the processing

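DESeq2 called more genes than edgeR in the PAC metastasis pairs (4841 against 1701), the TCC pairs (486 against 0), all lines against tissues (1966 against 1283), TCC against PAC tissues (1435 against 0), TCC against PAC lines (105 against 0) and the difference of the line effects (453 against 0). It moved past the threshold LAMA3 (1.98) and TRIM36 (1.70) in the PAC metastasis pairs, TP63 (7.23), LAMA3 (1.88) and TRIM36 (1.63) in TCC against PAC tissues, and TRIM36 (1.62) in metastasis lines against the primary tumor line, and the difference of the line effect of TP63 turned to -0.80. The cause was not tested.

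Without the filter on low counts, 3430 genes were called for all lines against tissues, 63 for TCC against PAC tissues and 679 for the passages. TRIM36 had 1.62 and passed in metastasis lines against the primary tumor line, and 2 values near 0 changed sign (TRIM36 in the TCC pairs 0.12, LAMA3 by passage 0.000716). With other size factors, 3 genes were called for TCC against PAC tissues. Without the pair, TRIM36 passed in the PAC metastasis pairs (1.73) and TP63 in the TCC pairs turned to 0.59. With 5 pairs and the pair as a covariate, 171 genes were called for lines against tissues. In the alternative added after seeing the data, without TCC1509 and Ln6.2, LAMA3 had 1.56 and was called, and without P2 too it had 1.39, was not called, and 705 genes were called.

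With 1 replicate or sample left out, TRIM36 ranged from 1.23 to 1.98 in the PAC metastasis pairs, from -0.28 to 0.13 in the TCC pairs and from -1.24 to -0.83 by passage. LAMA3 ranged from -1.07 to 0.58 in TCC against PAC lines, from -0.16 to 0.086 by passage and from 0.96 to 1.60 in lines against tissues. The genes called ranged from 885 to 2012 (without B7) for lines against tissues, 0 to 11 (without Ln4.3) for TCC against PAC tissues, 0 to 1 (without Adcarc0846) for TCC against PAC lines, 390 (without replicate 2) to 1349 for metastasis lines against the primary tumor line, with 805 without replicate 3, and 0 (without replicate 2) to 430 by passage, with 131 without replicate 3, 133 without Adcarc1508, 122 without Metadcarc1511.2 and 163 without Metadcarc1511.3. Leaving out a line in the comparison of passages, and each library as a sample without the block, were also chosen after seeing the data. Where 1 sample of a group was left, it was assumed to vary like the others.

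Replicate numbers were shared by the lines. Libraries of the same number deviated together in part, with a median correlation of 0.27 over 45 pairs, 41 of them above 0.1, and 16 of 18 libraries correlated best with their own number. As not every pair did, the replicate block was an alternative. With the replicate block, TRIM36 in metastasis lines against the primary tumor line was 1.53 and called, and with each library as a sample 317 genes were called for TCC against PAC lines with the block and 379 without it. The block changed no other call of a member. Of the 5 genes most like each member, none remained over lines or tissues alone for TP63. For LAMA3 2 remained by Spearman's rho and 1 over the lines, and for TRIM36 3 and 1.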
